A study of Homo sapiens with 6 samples.

Results

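The AP-1 and EGR immediate early genes examined here are FOS, FOSB, FOSL1, FOSL2, JUN, JUNB, JUND, ATF3, EGR1 and IER2. These 10 genes were taken by symbol from the 38637 genes of the deposited table, and all 10 were among the 16178 genes that passed the filter on low values. They were grouped after the difference between treatments had been seen, with the falls of FOS and EGR1 set against the rise of FOSL1, so that difference is given for them as a description without a test. RNA was sequenced from OVCAR8, a human ovarian cancer cell line labelled wild type, with 3 samples that received the vehicle DMSO and 3 samples that received pladienolide B, an inhibitor of the splicing factor SF3B1, at 2 nM. Cells of each group were collected after 72 h, and the labels do not say whether the replicates came from separate cultures, so p-values measure only the spread between these samples.

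Immediate early genes are transcribed within minutes of a growth factor, serum or stress signal, without new protein synthesis. The signal runs largely through MAP kinases, which phosphorylate factors such as ELK1 that act with SRF at the CArG box, and CREB-type factors that act at cAMP response elements. FOS and JUN proteins pair through leucine zippers to form AP-1, which binds a short palindromic DNA element, and EGR1 is a zinc finger factor that binds GC-rich DNA. FOSL1 encodes FRA-1, a FOS relative that lacks the strong activation domain of FOS and accumulates when ERK signalling is sustained in cancer cells.

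The promoter sequences of the genes at the extremes of the group show which of these elements lie close to the start site. Of the 10 genes, 9 had an entry in the RefSeq promoter table of build GRCh38.p14, FOSL1 being the other. The 250 bases before the annotated start site are printed 5′ to 3′ on the strand of the gene, with matches to the motifs searched in capitals. FOS and EGR1 are shown because they had the largest falls, FOSB as the other FOS relative with few reads, and JUND as a gene whose groups overlapped.
FOS: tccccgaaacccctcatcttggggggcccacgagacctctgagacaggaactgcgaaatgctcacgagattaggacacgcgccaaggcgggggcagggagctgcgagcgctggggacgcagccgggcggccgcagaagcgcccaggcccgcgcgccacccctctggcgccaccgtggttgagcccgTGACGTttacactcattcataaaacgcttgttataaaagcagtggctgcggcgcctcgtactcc
EGR1: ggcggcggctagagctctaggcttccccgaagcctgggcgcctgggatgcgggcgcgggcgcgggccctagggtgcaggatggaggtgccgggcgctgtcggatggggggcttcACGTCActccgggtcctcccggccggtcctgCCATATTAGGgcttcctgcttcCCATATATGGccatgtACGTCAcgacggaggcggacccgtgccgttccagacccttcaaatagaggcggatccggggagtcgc
FOSB: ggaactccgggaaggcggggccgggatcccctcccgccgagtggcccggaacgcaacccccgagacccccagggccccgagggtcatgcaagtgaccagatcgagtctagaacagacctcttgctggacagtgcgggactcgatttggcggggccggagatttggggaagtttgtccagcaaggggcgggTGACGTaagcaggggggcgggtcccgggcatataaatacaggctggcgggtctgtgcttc
JUND: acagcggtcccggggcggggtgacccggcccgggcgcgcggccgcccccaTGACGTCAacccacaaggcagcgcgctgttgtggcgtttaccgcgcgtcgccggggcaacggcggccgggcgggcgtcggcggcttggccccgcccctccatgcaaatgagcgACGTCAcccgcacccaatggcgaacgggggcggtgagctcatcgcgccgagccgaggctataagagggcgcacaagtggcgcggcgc
These stretches lie at chr14:75278578-75278827 on the + strand for FOS, chr5:138465229-138465478 on the + strand for EGR1, chr19:45467746-45467995 on the + strand for FOSB and chr19:18281623-18281872 on the - strand for JUND.

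The core of the cAMP response element, TGACGT on either strand, was present before the start site of FOS, FOSB, FOSL2, EGR1 and JUND. In FOS it spanned bases 64 to 59 before the start, in FOSB bases 60 to 55 and in FOSL2 bases 66 to 61. EGR1 had matches at bases 136 to 131 and 67 to 62, and in JUND overlapping matches on both strands at bases 200 to 193 formed the full palindrome, with a further match at bases 87 to 82. TGACGT was held in the same window by 7.1% of all 35116 promoters. The CArG box, the SRF element, was found in EGR1 at bases 105 to 96 and 83 to 74, and in 1.16% of all promoters. Bases farther than 250 before the start site were not searched, so FOS and the other genes without a match can hold a CArG box there. The variant TGACATCA occurred in JUN at bases 67 to 60 and upstream of 1 of the ATF3 entries, the one at the start of the gene as listed, against 2.37% of all promoters. In the 9 genes the AP-1 element TGANTCA and the EGR1 element GCGTGGGCG had no match in these windows, and were present in 6.57% and 0.72% of all promoters. These matches describe the letters in the window and not binding in OVCAR8 cells.

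The libraries held 22621338 to 26130882 recovered reads on genes. Of the 16178 tested genes, limma called 47.6% (adjusted p below 0.05). DMSO replicate 2 stood apart from the other DMSO samples, with a chi-square per degree of freedom of 7.34 and 7.25 against them, where counting alone gives 1 and the other DMSO pair gave 2.01. Among markers of the labelled tissue PAX8 had 4011 to 4581 adjusted reads and EPCAM 431 to 513, while WT1, MUC16 and KRT19 had at most 33.8. Of the defining markers of leukocytes PTPRC had at most 2 reads and CD3E had 0, and the summed leukocyte list, carried mainly by CD68, lay between 1152 and 1313 in the controls and between 1525 and 1627 in the treated samples. The fibroblast list, carried by COL1A1, lay between 6968 and 7145 in the controls and between 5903 and 6567 in the treated samples, and the endothelial list summed to at most 114. Limma called 2 of 8 tested epithelial markers higher and 1 lower, 1 of 3 leukocyte markers higher and 1 lower, 0 of 4 fibroblast markers higher and 2 lower, and 0 of 3 endothelial markers. The numbers called higher by edgeR were 2 epithelial, 1 leukocyte, 0 fibroblast and 0 endothelial markers. Their part in the differences below was not tested.

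FOS, EGR1, FOSL2 and IER2 were lower in pladienolide B than in DMSO, and FOSL1 was 2.06-fold higher. JUN was slightly lower, while JUND and ATF3 overlapped between the groups. With the test applied to all genes, 7 of the 10 genes were called lower, 1 was called higher and 2 were not called, where 25.2% of all tested genes were called lower and 22.4% higher. The groups did not overlap for 8 of the 10, against 55.3% of all tested genes, 28.8% lower and 26.4% higher in the treated samples. Since the genes were chosen from this contrast, nothing is read from these counts. Their median log2 fold change was -0.41, beside -0.004 over all tested genes. In bulk RNA, fewer cells making a transcript and less transcript per cell cannot be told apart.

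**Figure D1:**
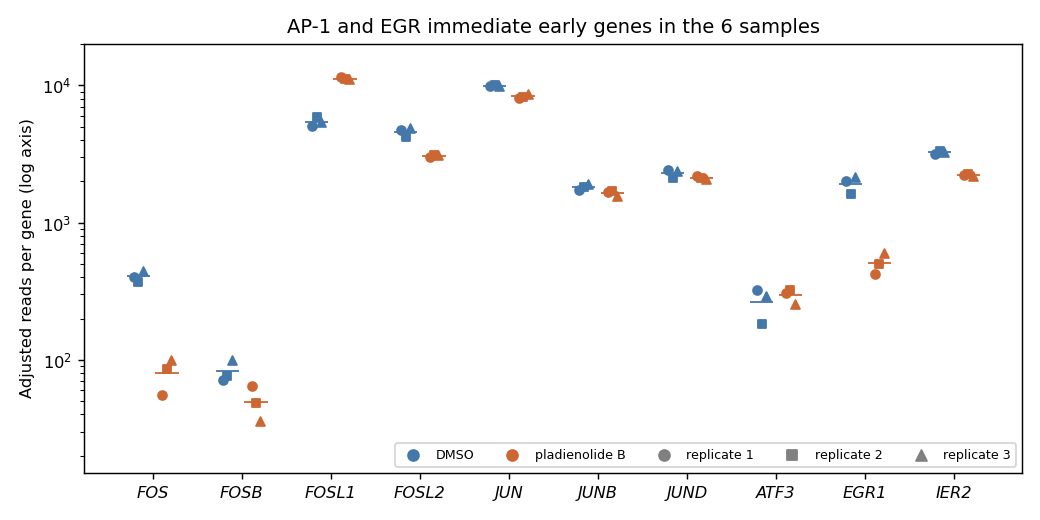
Adjusted reads (library-size-adjusted reads per gene, log axis) of the 10 genes in each of the 6 samples, with DMSO in blue, pladienolide B in orange, a marker shape for each replicate and a line at each group mean. FOS, EGR1, FOSL2 and IER2 lie lower in every pladienolide B sample, FOSL1 lies higher in every one, and the points of JUND and ATF3 overlap.

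FOS, the founding member of its family and the partner of JUN in the classical AP-1 dimer, lies on chromosome 14 of hg38 from 75278828 to 75282230 on the + strand. It had 401, 372 and 447 adjusted reads in DMSO replicates 1 to 3 and 55.6, 85.3 and 100.2 in pladienolide B replicates 1 to 3. Every pladienolide B sample was below every DMSO sample, and the highest treated sample was far under the lowest control. The mean fell from 407 ± 37.6 to 80.4 ± 22.7 (SD, n = 3 in each group), so that 19.8% of the DMSO level remained. The log2 fold change was -2.36 (SE 0.17), and it lay between -2.54 and -2.12 over the alternative fits, both ends coming from leaving out 1 pladienolide B sample.

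FOSB, whose protein pairs with JUN proteins like FOS, lies on chromosome 19 from 45467996 to 45475179. It was the rarest of the group, with 71.3, 76.6 and 99.6 adjusted reads in DMSO and 64.3, 48.1 and 36.1 in pladienolide B. The lowest DMSO sample and the highest pladienolide B sample were close, although the groups did not overlap. The log2 fold change was -0.75 (SE 0.22), and it ranged from -0.55 without pladienolide B replicate 3 to -0.95 without pladienolide B replicate 1. FOSB was no longer called when DMSO replicate 3 or pladienolide B replicate 3 was left out, or without limma's variance trend.

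FOSL1, on chromosome 11 from 65892049 to 65900545 on the - strand, went the other way. It had 5069, 5869 and 5392 adjusted reads in DMSO and 11567, 11026 and 11032 in pladienolide B. The groups were well apart, and the treated samples differed little among themselves. The mean rose from 5443 ± 402 to 11208 ± 311 (SD, n = 3 in each group), a log2 fold change of 1.04 (SE 0.05) that stayed between 0.99 and 1.10 over the alternatives.

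FOSL2, which encodes FRA-2, lies on chromosome 2 from 28392855 to 28417317. Its adjusted reads were 4703, 4212 and 4879.6 in DMSO and 3007, 3098 and 3105 in pladienolide B. All treated samples were lower, and 66.8% of the DMSO mean remained, with a log2 fold change of -0.58 (SE 0.05). A gene on the opposite strand, FLJ31356, overlaps its first part and had at most 3 reads in any sample. No other gene of the table overlaps any of the 10 genes.

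The Jun genes moved much less than FOS and EGR1. JUN, the main dimer partner of the FOS proteins, lies on chromosome 1 from 58780791 to 58784047 on the - strand and had 9906, 10105 and 9884 adjusted reads in DMSO against 8103, 8263 and 8687 in pladienolide B. Every treated sample was lower, and the difference was small, with 83.8% of the DMSO level left and a log2 fold change of -0.26 (SE 0.04). JUNB, on chromosome 19 from 12791486 to 12793315, had 1735, 1823 and 1923 adjusted reads in DMSO and 1666, 1697 and 1558 in pladienolide B. Its groups nearly touched, the log2 fold change was -0.15 (SE 0.05), and the call was lost in the same 3 fits as that of FOSB.
JUND, the Jun gene that is made steadily in many cell types, lies on chromosome 19 from 18279694 to 18281622 on the - strand. It had 2427, 2104 and 2369.8 adjusted reads in DMSO and 2184, 2098 and 2061 in pladienolide B, with a log2 fold change of -0.12 (SE 0.05). DMSO replicate 2 lay among the treated samples, and JUND was called lower when that sample was left out, at a log2 fold change of -0.18.

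ATF3, a stress-induced bZIP protein that can pair with JUN proteins, lies on chromosome 1 from 212565407 to 212620777. It had 324, 181 and 292 adjusted reads in DMSO and 308, 324 and 256 in pladienolide B. The groups overlapped, with DMSO replicate 2 far below the rest. Its log2 fold change was 0.19 (SE 0.16), and it turned to -0.06 without DMSO replicate 2.

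EGR1, on chromosome 5 from 138465479 to 138469303, had 2002, 1607 and 2159 adjusted reads in DMSO and 421, 499.7 and 600.2 in pladienolide B. The groups were far apart. The mean fell from 1923 ± 284 to 507 ± 90.0 (SD, n = 3 in each group), so that 26.4% of the DMSO level remained, and the log2 fold change of -1.93 (SE 0.11) stayed between -2.05 and -1.80 over the alternatives. IER2, an immediate early gene whose product is a nuclear protein, lies on chromosome 19 from 13150411 to 13154911. It had 3161, 3331 and 3279.8 adjusted reads in DMSO and 2209.5, 2263 and 2168 in pladienolide B. The samples of each group lay close together, and the log2 fold change was -0.56 (SE 0.04).

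**Figure D2:**
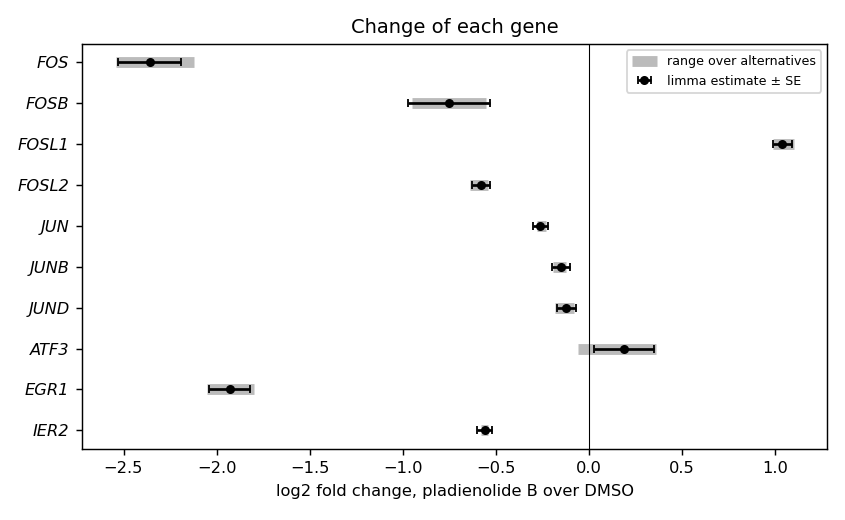
Log2 ratio of the treated to the DMSO samples for each of the 10 genes (points, with the SE of the limma fit as bars) and the range over the alternative fits (grey). FOS at -2.36 and EGR1 at -1.93 lie far to the left, FOSL1 at 1.04 to the right, and the range of ATF3 crosses 0.

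Levels were compared between genes as adjusted reads per kilobase of the longest GENCODE transcript. FOSL1 and JUN had the highest levels in DMSO, 3198 ± 236 and 3059.5 ± 37.5 per kilobase (SD, n = 3), and their samples overlapped. JUND at 1193 ± 89.5 and IER2 at 1110.2 ± 29.8 overlapped as well, followed by JUNB at 998 ± 51.5. FOSL2 at 685 ± 51.6 and EGR1 at 613 ± 90.7 overlapped, and FOS at 193 ± 17.9, ATF3 at 126 ± 35.7 and FOSB at 21.9 ± 3.99 lay below them without overlap. In pladienolide B ATF3, at 141 ± 17.0 per kilobase, lay above FOS, at 38.2 ± 10.8 (SD, n = 3), with each of the 3 transcript lengths tried. Other neighbours in the order depended on the length taken. With the median annotated length FOSL1 and JUN no longer overlapped in DMSO and FOSL2 lay above JUNB, and with the canonical length IER2 lay above JUND. The median length also made EGR1, at 512 to 688 per kilobase, and FOS, at 456 to 548, overlap in DMSO. With that length ATF3, at 364 ± 44.1, lay above EGR1, at 162 ± 28.7, in pladienolide B (SD, n = 3). In pladienolide B JUNB lay above IER2 with the longest length alone.

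Within the Fos family the transcripts were mostly FOSL1 before treatment and almost entirely FOSL1 after it. In levels per kilobase FOSL1 made up 76.6%, 80.7% and 76.6% of the family in DMSO replicates 1 to 3 and 93.3%, 92.6% and 92.6% in pladienolide B replicates 1 to 3. The share of FOSL2 went from 16.8% ± 1.81 to 6.45% ± 0.263, and that of FOS from 4.73% ± 0.521 to 0.541% ± 0.162 (SD, n = 3 in each group). The summed level of the Fos family was 4098 ± 195 per kilobase in DMSO and 7094 ± 168 in pladienolide B (SD, n = 3 in each group). The FOSL1 level per kilobase was 14.9 to 19.5 times the FOS level in the DMSO samples and 136 to 257 times in the pladienolide B samples. Against EGR1 it was 4.60 to 6.73 times in DMSO and 33.9 to 50.7 times in pladienolide B. The median annotated length moved the FOS ratio to between 8.20 and 10.7 in DMSO and between 74.8 and 141 in pladienolide B, the EGR1 ratio to between 6.53 and 9.55 and between 48.0 and 71.9, and the DMSO share of FOS to 7.77%.

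The makeup of the Jun family hardly moved. JUN made up 58.3% ± 1.37 of the family level per kilobase in DMSO and 56.3% ± 1.68 in pladienolide B, JUNB 19.0% ± 0.871 and 19.7% ± 0.974, and JUND 22.7% ± 1.53 and 24.1% ± 0.86 (SD, n = 3 in each group). The summed Jun level was 5250.4 ± 62.2 per kilobase in DMSO, above the Fos sum, and 4557 ± 28.5 in pladienolide B, below it. The order of both sums in DMSO depends on the transcript length taken, since with the median annotated length the Fos sum was 6429 and the Jun sum 5952.

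**Figure D3:**
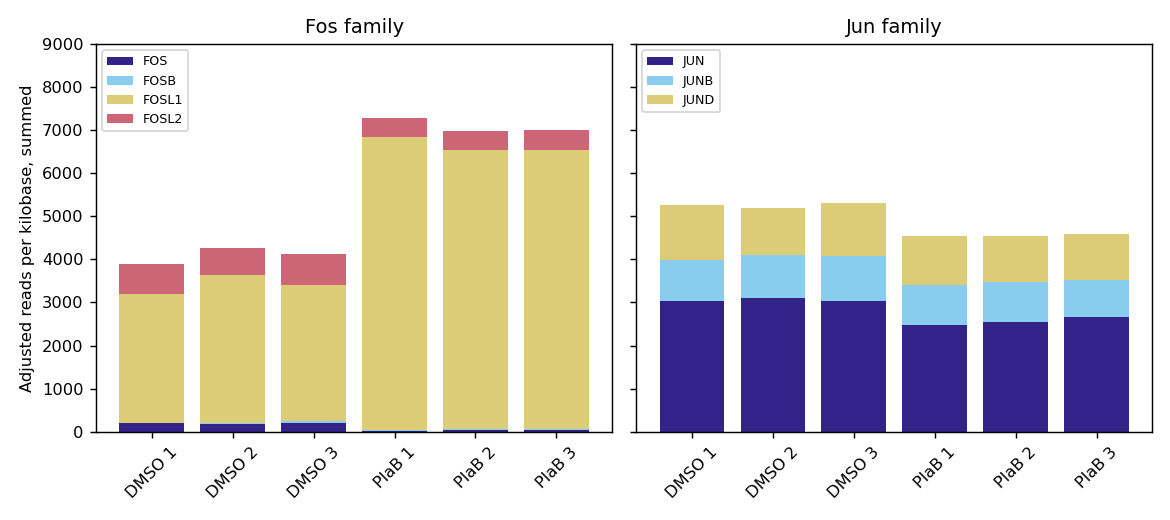
Adjusted reads per kilobase of the longest transcript, stacked by gene, for the Fos family (left) and the Jun family (right) in each sample, PlaB being pladienolide B. The FOSL1 layer takes 76.6% to 80.7% of the Fos bars in DMSO and 92.6% to 93.3% in pladienolide B, while the layers of the Jun bars keep similar proportions.

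The genes differed widely in how much replicates varied. The within-group SD of log2 values was 0.32 for FOS, 0.34 for FOSB, 0.34 for ATF3 and 0.24 for EGR1, which placed these 4 genes between percentiles 80.7 and 88.4 of the 16178 tested genes, for which the median SD was 0.099. JUN at 0.039 and IER2 at 0.035 were among the steadiest, at percentiles 9.13 and 7.09. The remaining genes lay between percentiles 31.6 and 41.2. Counting alone spreads genes with few reads more, and the percentiles were not taken among genes of like level. Reads per sample were 36 to 105 for FOSB and 7741 to 10522 for JUN. DMSO replicate 2 had the lowest DMSO value of 5 of the 10 genes, FOS, FOSL2, JUND, ATF3 and EGR1, and the highest of FOSL1, JUN and IER2. In pladienolide B replicate 1 was lowest for FOS, FOSL2, JUN and EGR1, and replicate 3 highest for these same 4 genes. Within each group FOS, EGR1 and FOSL2 ranked the samples alike.

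**Figure D4:**
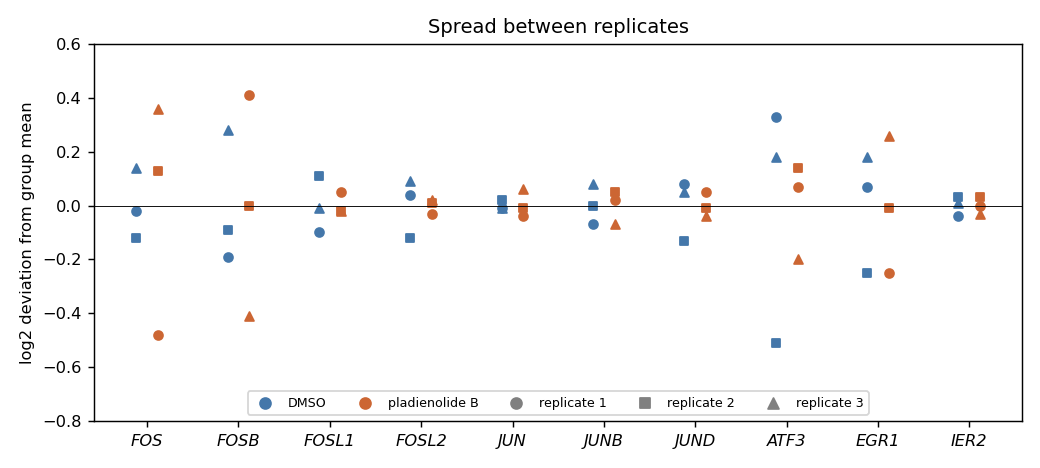
Deviation of each sample from its group mean on the log2 scale for the 10 genes, with DMSO in blue, pladienolide B in orange and a marker shape for each replicate. FOS, FOSB, ATF3 and EGR1 scatter widely, with ATF3 in DMSO replicate 2 at -0.51, and JUN and IER2 stay within 0.06 of their group means.

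The genes have few introns. In the GENCODE canonical transcripts JUN, JUNB and JUND have 0 introns, EGR1 and IER2 have 1, and the 4 Fos genes and ATF3 have 3. Among tested protein-coding genes, the 302 with 0 introns lay at a median log2 fold change of 0.116, and among them 28.5% were called higher and 13.6% lower by limma. The 2567 genes with 1 to 3 introns had a median of 0.021, with 23.3% called higher and 21.8% lower. For the 10836 with 4 or more introns the median was -0.007, with 24.5% called higher and 28.4% lower. FOS, FOSL1, FOSL2 and FOSB have the same number of introns and had log2 fold changes from -2.36 to 1.04. Whether intron number had a part in any of these changes was not tested.

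The genes whose pattern over the 6 samples was nearest to that of FOS, EGR1 or FOSL1 were sought by the distance between log2 values centred on the DMSO mean, among 13201 genes with a mean of at least 50. Nearest to FOS were HK2, a hexokinase, at a distance of 0.67, MIR210HG at 0.75 and PFKFB4, which sets the level of a glycolysis activator, at 0.87. Nearest to EGR1 were PFKFB4 at 0.15, MIR210HG at 0.21 and SPRY1, an inhibitor of receptor tyrosine kinase signalling, at 0.38. SPRY1 had 319, 272 and 306 adjusted reads in DMSO and 79.3, 87.5 and 94.2 in pladienolide B. Nearest to FOSL1 were SNRPA1, a U2 snRNP protein, at 0.16, GPCPD1 at 0.19 and LOC107985923 at 0.24. The log2 fold change was -2.12 for HK2, -1.93 for PFKFB4 and 0.96 for SNRPA1. These distances describe likeness in these samples only.

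The other genes of the pathway were taken from lists written by hand with earlier results of these data known, so their shares of calls describe these lists and are not independent evidence of a direction. Among 50 tested immediate early genes outside the 10, 23 were called higher and 11 lower by limma, 46% and 22% against 22.4% and 25.2% of all tested genes, with a median log2 fold change of 0.17. Among genes of the list with a mean of at least 50 adjusted reads and groups that did not overlap, the largest rises were those of the MAP kinase phosphatases DUSP4, DUSP6 and DUSP5, which are induced by ERK signalling and dampen it. DUSP4 rose from 36.4 ± 7.03 to 149.9 ± 7.10 adjusted reads (SD, n = 3 in each group), 2.03 on the log2 scale (limma adjusted p = 9.6e-08). DUSP6 rose from 273 ± 32.2 to 666 ± 29.3 and DUSP5 from 1713 ± 119 to 4108 ± 226 (SD, n = 3 in each group), or 1.29 (limma adjusted p = 6.4e-09) and 1.26 (limma adjusted p = 2.8e-11) on the log2 scale. By the same rule the largest falls were those of BHLHE40, a transcriptional repressor, from 7322 ± 475 to 3666 ± 316, RHOB, a small GTPase, from 6924 ± 302 to 4068 ± 60.4, and PLK2, a kinase, from 21833 ± 2524 to 14501 ± 667 (SD, n = 3 in each group), with adjusted p-values of 8.5e-10, 4.4e-10 and 7.3e-07 by limma.

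EGR2 and EGR4, relatives of EGR1 with few reads, were higher in pladienolide B. EGR2 had 64.9, 68.5 and 67.1 adjusted reads in DMSO and 114, 92.1 and 107 in pladienolide B, with a log2 difference of 0.63 (SE 0.16, limma adjusted p = 0.0033). EGR4, named after its values were seen, had 6, 15 and 13 reads in DMSO and 18, 31 and 41 in pladienolide B, with a log2 difference of 1.45 (SE 0.39). It passed the filter on low values through the treated samples, so no test is read from it. With a mean of at least 50 adjusted reads required, 22 of the other immediate early genes were called higher. EGR3 was not tested, with 1 to 4 reads in DMSO and 0 to 7 in pladienolide B. NR4A1, an orphan nuclear receptor and immediate early gene also named after its values were seen, rose from 592 ± 27.6 to 856 ± 30.8 adjusted reads (SD, n = 3 in each group, adjusted p = 3.8e-06 by limma).

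A list of other bZIP factors was drawn up, the class of protein to which the FOS, JUN and ATF proteins belong. On this list 8 of 38 tested genes were called higher and 14 lower by limma. These were 21.1% and 36.8%, against 22.4% and 25.2% of all tested genes, and the median log2 fold change was -0.08. The genes called higher include CEBPZ, which shares a name with the CEBP factors but is not a bZIP protein. CREB5, a factor that binds cAMP response elements and can pair with JUN, rose from 305 ± 41.0 to 708 ± 28.9 adjusted reads (SD, n = 3 in each group, log2 fold change 1.22, adjusted p = 1.6e-08 by limma). DDIT3, a stress-induced factor, rose by 0.60 and BACH2, a repressor, by 0.53 on the log2 scale (adjusted p = 0.00081 and 0.006 by limma). With at least 50 adjusted reads on average and groups that did not overlap, the largest falls were those of XBP1, from 2052 ± 267 to 1354 ± 84.8, NFIL3, from 474 ± 47.7 to 364 ± 40.5, and ATF4, from 13582 ± 1459 to 10567 ± 524 adjusted reads (SD, n = 3 in each group), with adjusted p-values of 7.4e-06, 0.0035 and 0.00014 by limma. NRL, named after its values were seen since it had fewer reads, went from 33 to 47 reads in the controls to 10 to 15 in the treated samples (limma adjusted p = 0.00035). XBP1 and ATF4 are best known from the unfolded protein and integrated stress responses.

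A further list held kinases, SRF partners and cofactors, most of them acting upstream of the immediate early genes. Of its 36 tested genes 7 were called higher and 14 lower by limma. These were 19.4% and 38.9%, against 22.4% and 25.2% of all tested genes, and the median log2 fold change was -0.10. The cofactors NAB1 and NAB2, both called lower, are also on the EGR1 target list. MAP2K3, a kinase that activates p38, had 774, 911 and 737 adjusted reads in DMSO and 2262, 2208 and 2046 in pladienolide B, with a log2 difference of 1.43 (SE 0.07, limma adjusted p = 9.7e-11). ELK3, an SRF partner, rose by 0.42 and MAPK8, which encodes the JUN kinase JNK1, by 0.37 on the log2 scale (adjusted p = 6.7e-07 and 5.7e-06 by limma). MAPK9, which encodes the JUN kinase JNK2 and was named after its values were seen, went the other way. It fell from 2495 ± 64.5 to 1930.3 ± 74.5 adjusted reads (SD, n = 3 in each group), a log2 fold change of -0.37 (limma adjusted p = 6.8e-06). The ERK kinases MAP2K1 and MAP2K2 fell, from 3142 ± 126 to 2357 ± 45.4 and from 3918 ± 103 to 2667 ± 122 adjusted reads (SD, n = 3 in each group), with adjusted p-values of 1.3e-06 and 5e-08 by limma. MAP2K5, the kinase of ERK5, fell by 0.52 on the log2 scale (adjusted p = 6.2e-05 by limma).

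Of 24 tested genes known as targets of AP-1, 16 were called higher and 3 lower by limma, 66.7% and 12.5% against 22.4% and 25.2% of all tested genes, with a median log2 fold change of 0.46. MMP1, a collagenase, had 36784, 41512 and 38242 adjusted reads in DMSO and 113314, 122081 and 87396 in pladienolide B, with a log2 difference of 1.46 (SE 0.09, limma adjusted p = 8.6e-10). ITGA2, a collagen-binding integrin, rose from 208 ± 16.6 to 470.4 ± 50.7 and PHLDA1, which is also on the immediate early list, from 1547 ± 227 to 3138 ± 111 adjusted reads (SD, n = 3 in each group), with adjusted p-values of 7e-08 and 1.5e-08 by limma. MMP3 and CSF2, a matrix protease and a cytokine named after their values were seen, are among the genes called higher but had few reads. MMP3 had 0 to 1 reads in the controls and 16 to 19 in the treated samples, and CSF2 1 to 9 and 17 to 22. Both passed the filter on low values only through the treated samples, so no test is read from them. With a mean of at least 50 adjusted reads required, 14 genes of the list were called higher. The 3 genes called lower were AXL, a receptor tyrosine kinase, LIF, a cytokine, and EZR, which links membrane to actin, with log2 fold changes of -0.44, -0.24 and -0.18 (adjusted p = 1.6e-07, 0.017 and 0.0027 by limma). The call of LIF was lost without DMSO replicate 1 or 3 or pladienolide B replicate 3, at log2 fold changes of -0.18, -0.21 and -0.22.

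Of 18 tested genes known as targets of EGR1, 3 were called higher and 9 lower by limma. These were 16.7% and 50%, against 22.4% and 25.2% of all tested genes, and the median log2 fold change was -0.15. VEGFA, an angiogenic growth factor, had 1489.8, 917 and 1414 adjusted reads in DMSO and 471, 528 and 546 in pladienolide B, with a log2 difference of -1.27 (SE 0.13, limma adjusted p = 3.9e-07). FN1, the matrix protein fibronectin, fell from 117905 ± 4316 to 54568 ± 6126 and F3, the tissue factor of coagulation, from 36674 ± 1167 to 21979 ± 575 adjusted reads (SD, n = 3 in each group), with adjusted p-values of 4.9e-10 and 4.4e-10 by limma. The 3 genes called higher were EGR2, ICAM1, an adhesion molecule, which rose by 0.33 on the log2 scale (adjusted p = 0.0016 by limma), and FLT1, a VEGF receptor named after its values were seen, with 12 to 24 reads in the controls and 31 to 38 in the treated samples (limma adjusted p = 0.012). The call of FLT1 was lost without DMSO replicate 3 or without pladienolide B replicate 2, at log2 fold changes of 0.73 and 0.89. These lists describe known relations, and the AP-1 and EGR1 target lists have 1 tested gene in common. The EGR1 target list shares 2 tested genes, NAB1 and NAB2, with the list of kinases, SRF partners and cofactors, where they were counted as well. Whether the target genes moved through the factors themselves was not tested.

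**Figure D5:**
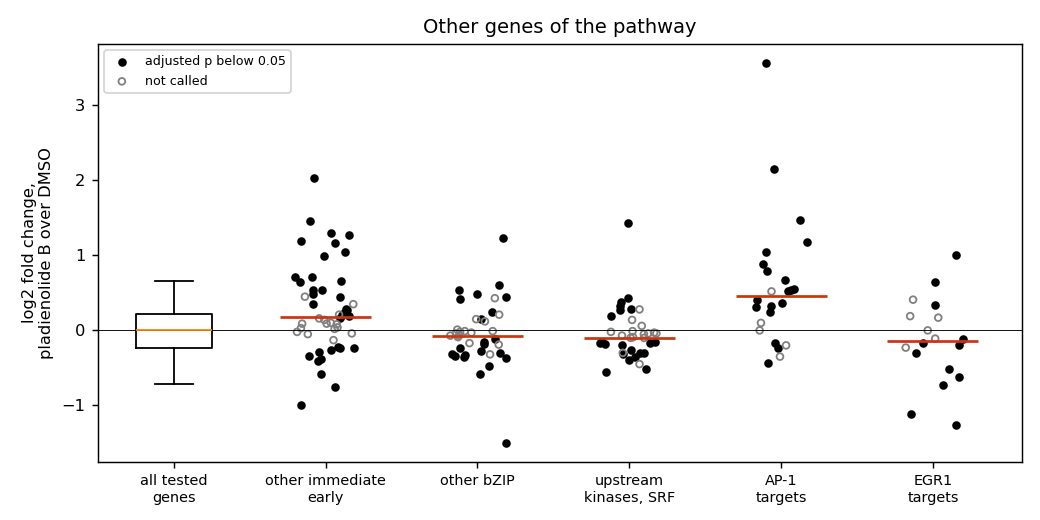
Log2 ratio of the treated to the DMSO samples for all 16178 tested genes (box at the quartiles, whiskers at percentiles 5 and 95) and for each tested gene of the 5 lists (points, filled where adjusted p is below 0.05 by limma), with the list median in red. The median of the AP-1 target list is 0.46 and that of the EGR1 target list -0.15.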

How the data were processed

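RNA sequencing of 3 DMSO and 3 pladienolide B samples of OVCAR8 cells was analysed from 1 deposited table. The study's methods give trimming and an alignment to hg38 by hisat2. The submitters' processing notes name hg19, HISAT2, HTSeq 0.12.4 and DESeq2, but the table's positions are those of GRCh38, overlapping the RefSeq position for 99.8% of 35926 shared symbols. Gene models and the use of strand in counting are not given in the sources used here.

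The authors deposited per sample a signal, reads per gene adjusted to a common library size in the form of edgeR's quantile adjustment, called adjusted reads here. Inverting it with a common dispersion of 0.0027 gave whole reads, to within 0.02, for 100% of 96432 values of 10 or more and for 99.998% of smaller values above 0. The authors also deposited log2 fold changes, p-values and q-values, which were not used.

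Values were tested on log2(value + 1) with limma 3.58.1 (trend, two-sided, Benjamini-Hochberg adjustment) after the filterByExpr function of edgeR 4.0.16 (10 in 3 samples, 15 in total). On this scale the change of low genes is understated. edgeR's quasi-likelihood test and DESeq2 1.42.0 on the recovered reads were alternatives, with other pseudocounts, filters, scalings, a replicate block, no variance trend and each sample left out. Transcript lengths and introns came from GENCODE release 44.

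The genes and lists were chosen with earlier results of these data known. From each list the 3 genes called higher and the 3 called lower with the largest change are named, given a mean of at least 50 and groups that do not overlap. For FOS, EGR1 and FOSL1 the 3 nearest genes are named.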

Additional observations from a re-analysis of the deposited data

How the results depend on the processing

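Between 6381 and 7836 genes were called under the alternatives, against 7695. Of the 10 immediate early genes 8 were called, and 6 to 9 under the alternatives, where 47.6% of all tested genes were called in the main fit. The genes were chosen from this contrast, so their counts show only which calls depend on the fit. The count was 6 without the variance trend, without DMSO replicate 3 and without pladienolide B replicate 3, each time without FOSB and JUNB, and 9, with JUND, without DMSO replicate 2. No direction of a called gene changed. Counts of list genes called stayed within 1.5 times with 1 exception. Of the kinases, SRF partners and cofactors, 9 in place of 14 were called lower without the variance trend. FOSL1 made up 70.5% of the Fos family level in DMSO with the median transcript length, against 78.0% with the longest. The canonical length was added after the values were seen and gave 78.0%. Of the other named genes, LIF lost its call in 4 fits, FLT1 in 2 and ICAM1 in 1.

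The replicate number pairs nothing that could be seen, since deviations of same-numbered samples correlated at -0.018, -0.017 and 0.003. With the replicate block 7349 genes were called, and 8 of the 10 immediate early genes, 7 lower and 1 higher. FOSB, with 36 to 105 reads, is the gene for which depth limits the estimate most.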
